A study of Mus musculus with 23 samples.

Results

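The 10 inflammatory cytokine and inflammasome genes Il1a, Il1b, Il1rn, Il18, Tnf, Il6, Nlrp3, Pycard, Casp1 and Gsdmd were taken by symbol from the count table of 18876 genes, and 10 of 10 were found and passed the filter on low counts. RNA was sequenced in bulk from CD11b+ cells, a sort that keeps microglia and other myeloid cells, of the hippocampus of female mice. All mice were Slc11a2 fl/fl; Cx3cr1 Cre-ERT2+/- on a mixed 129S;C57BL/6J background, and were either hemizygous for APP/PS1 or WT littermates. Mice of the Slc11a2 KD groups were gavaged with 4 mg of tamoxifen daily for 5 days at 5 to 6 months of age, Control mice received corn oil, and tissue was taken at 15 to 18 months. The 4 groups were Control WT (n = 6), Control APP/PS1 (n = 6), Slc11a2 KD WT (n = 5) and Slc11a2 KD APP/PS1 (n = 5). Each sample was 1 library, named here by its number in the labels. Cre-ERT2 was driven from the Cx3cr1 locus, so that it acts in microglia and in other macrophages that use this gene, and tamoxifen and the knockdown cannot be told apart. Slc11a2 encodes the iron transporter DMT1, and the comparisons ask how its loss in microglia and the APP/PS1 genotype, a model of amyloid deposition, bear on these genes. The study's methods call the samples of a group biological replicates, so the p-values measure the spread between mice, that of sorting and library preparation included.

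Interleukin-1 cytokines, TNF and IL-6 are the classical secreted signals of activated microglia. IL-1β and IL-18 are made as inactive precursors. A sensor such as NLRP3 joins the adaptor ASC, encoded by Pycard, and caspase-1 into the inflammasome, which cleaves these precursors and also gasdermin D, the protein that opens pores in the membrane. Transcription of Il1b and Nlrp3 through NF-kB is the known priming step, whereas Pycard, Casp1 and Gsdmd are known to be present without it. Microglia that are dissociated from tissue are also known to switch on early response genes within a short time.

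Total counts ran from 31128643 to 54872491 per library (median 41460280). Library 10, labelled Control APP/PS1, was left out. The CD11b+ identity was checked with 9 microglia markers, whose summed level lay between 27376 and 41903 CPM (counts scaled to library size) in every library. It was lower in APP/PS1, from 27376 to 31480 CPM in Control APP/PS1 against 36223 to 41542 CPM in Control WT, and 4 of the 9 markers fell in that comparison. In KD APP/PS1 it ran from 30414 to 34078 CPM against 37014 to 41903 CPM in KD WT, and 6 of the 9 fell. In bulk RNA, fewer cells of a type and less RNA per cell cannot be told apart. The 10 choroid plexus epithelium markers summed to between 1.26 and 6.03 CPM in 10 of the 12 Control libraries, to 1955 CPM in library 12, to 1008 CPM in library 15, and to between 88.1 and 786 CPM in KD libraries 18 to 23. KD libraries carried the numbers 1 to 4 and 18 to 23, and all Control libraries lay between 5 and 17. The labels do not call these runs of numbers batches. Slc11a2 itself, the targeted gene, lay between 29.9 and 43.7 CPM in Control WT, 27.1 and 38.1 CPM in KD WT, 40.0 and 48.2 CPM in Control APP/PS1 and 37.8 and 75.1 CPM in KD APP/PS1, so that the counts of the whole gene did not show the knockdown. Reads on exons outside a deleted part still count for the gene, so these counts cannot check the label. The study itself reported the knockdown by RT-qPCR in microglia of all its animals. It also reported lost expression over part of the gene in its sequencing reads.

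Genes of short and of long exon length also shifted against each other between libraries. Over the 11866 genes with a mean of at least 1 CPM and a known exon length, the median log2 CPM relative to each gene's own mean was taken for short genes (up to 3893 bp, 25% of them) minus long genes (from 9231 bp, 25%). This short-long difference lay between -0.32 and -0.040 in Control WT and between -0.48 and 0.10 in Control APP/PS1. In the KD groups it split by library number. Libraries 1 to 4 lay between -0.63 and -0.28, and libraries 18 to 23 between 0.12 and 1.11. Library 21 (1.11) and library 23 (0.87), both KD APP/PS1, were the highest.

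On GRCm39, Il1b spans chr2:129206490-129213059, Tnf chr17:35418357-35420983, Il6 chr5:30218112-30224979, Pycard chr7:127588558-127593039 and Nlrp3 chr11:59432394-59457782, spans that cover every annotated transcript. Sequences upstream of 4 of the genes, the 4 that passed the test in the comparison within KD, are shown first so that their promoters can be compared. Each run is the 120 bases before the annotated transcription start (GENCODE M39 on GRCm39), read on the gene's own strand. They lie at chr2:129213060-129213179 (minus strand), chr17:35420984-35421103 (minus strand), chr5:30217992-30218111 (plus strand) and chr7:127593040-127593159 (minus strand). Capitals mark TATAAA in Il1b and Tnf and a match to the kappaB consensus in Il6.
Il1b: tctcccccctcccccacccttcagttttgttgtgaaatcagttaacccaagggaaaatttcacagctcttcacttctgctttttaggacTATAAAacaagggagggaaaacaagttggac
Tnf: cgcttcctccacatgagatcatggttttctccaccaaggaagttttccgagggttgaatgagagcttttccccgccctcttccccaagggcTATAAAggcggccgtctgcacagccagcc
Il6: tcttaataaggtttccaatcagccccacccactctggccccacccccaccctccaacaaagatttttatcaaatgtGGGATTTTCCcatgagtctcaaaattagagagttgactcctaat
Pycard: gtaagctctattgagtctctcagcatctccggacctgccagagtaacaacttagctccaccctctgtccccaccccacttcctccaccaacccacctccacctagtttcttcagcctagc

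The TATAAA of Il1b covered bases 31 to 26 before the start and that of Tnf bases 29 to 24, searched on the gene's strand only, and 5.22% of the 250-base upstream windows of 18731 genes held these letters. The match in Il6, GGGATTTTCC, covered bases 44 to 35, and 7.97% of windows held the kappaB consensus on either strand. The AP-1 letters TGANTCA, searched on both strands and overlapping neither of the other motifs, were in the windows of Il1rn (bases 134 to 128) and Il6 (bases 249 to 243) and in 5.06% of all windows. The windows of Il1a, Il18, Nlrp3, Pycard, Casp1 and Gsdmd held none of the 3 in these letters. The window of Nlrp3 lies before the start of its canonical transcript, at chr11:59433262-59433511 (plus strand), and so within the span of the gene.

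Levels were compared between genes per length, as reads per kilobase of merged exon after scaling to library size (RPKM). In Control WT, Tnf (196 ± 81.2 RPKM, SD, n = 6) and Il1a (142 ± 90.5 RPKM) were the highest and did not differ beyond their spread. Pycard (46.7 ± 3.77 RPKM), Il1b (42.0 ± 35.3 RPKM) and Nlrp3 (33.0 ± 18.1 RPKM) followed, also within the spread of Il1b and Nlrp3. Gsdmd stood at 18.6 ± 2.33 RPKM, Casp1 at 10.1 ± 1.02 RPKM and Il18 at 8.69 ± 1.15 RPKM, and the last pair lay close to each other's spread. Il6 (3.09 ± 1.40 RPKM) and the IL-1 receptor antagonist Il1rn (0.905 ± 0.855 RPKM) were the lowest. In Control APP/PS1 Il1b stood at 155 ± 96.2 RPKM, beside Il1a at 177 ± 92.0 RPKM, and the order of the other genes was kept.

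The genes also differed in how steady they were. Across the 22 libraries Gsdmd varied 1.37-fold from its lowest to its highest CPM, Casp1 1.75-fold, Il18 2.83-fold and Pycard 3.74-fold. Nlrp3 varied 7.02-fold, Tnf 7.30-fold, Il6 9.83-fold, Il1a 12.2-fold and Il1b 46.1-fold. The SD of log2 CPM within groups ran from 0.14 for Gsdmd to 1.34 for Il1b and 1.60 for Il1rn, which had few reads.

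**Figure D1:**
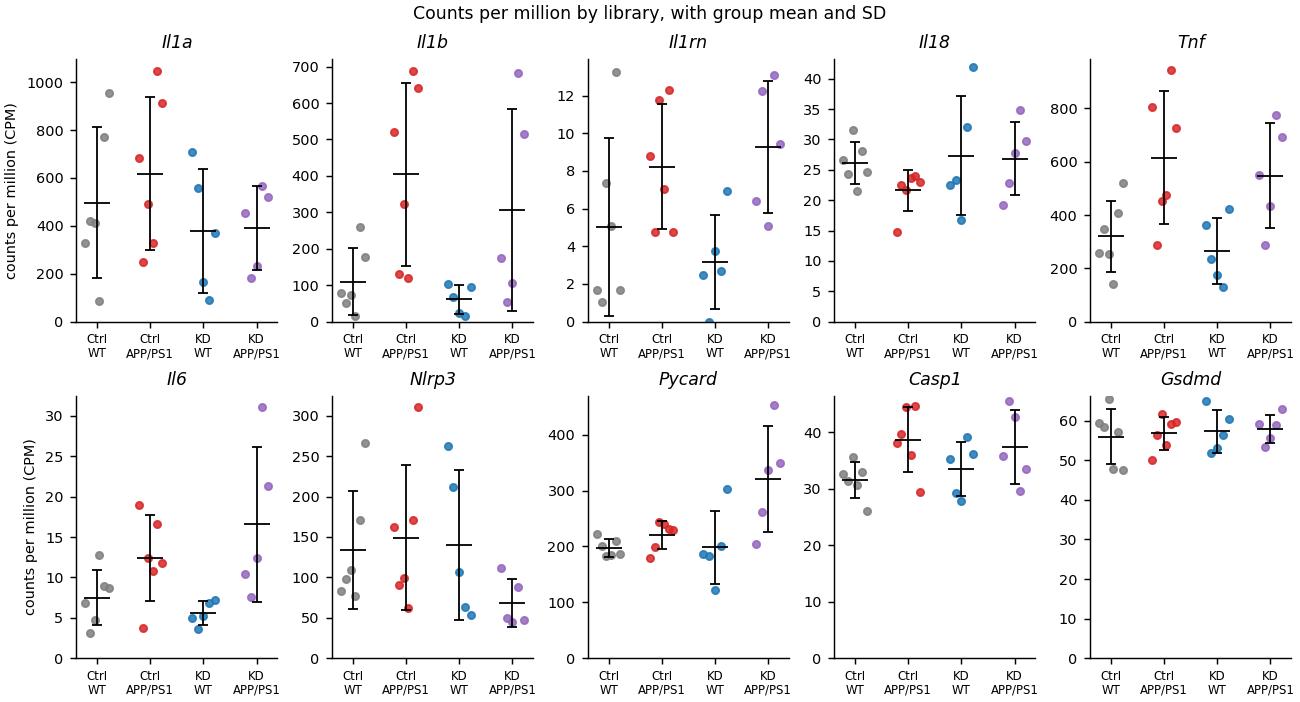
CPM of each gene in each library, by group; points are libraries in order of number, the bar is the group mean and the whiskers 1 SD (n = 6, 6, 5 and 5). Il1b in Control APP/PS1 runs from 121 to 687 CPM against 15.3 to 260 CPM in Control WT, and Gsdmd stays between 47.7 and 65.5 CPM in all 22 libraries.

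The first comparison asked what the APP/PS1 genotype changed in Control mice. Il1b and Tnf had the widest gaps, 3.70-fold and 1.92-fold higher on average, but 0 of the 10 genes passed an adjusted p of 0.05 in edgeR's quasi-likelihood test, while 10.5% of the 18759 genes tested did, 5.99% higher and 4.48% lower. At an unadjusted p under 0.05 there were 3, Il1b, Tnf and Casp1, where 24.3% of all genes stood. The log2 fold change was positive for 9 of the 10, with a median of 0.30 against -0.022 over all genes tested.

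Il1b, the secreted ligand of the IL-1 receptor, was at 77.4, 51.7, 72.7, 15.3, 260 and 179 CPM in Control WT libraries 6, 8, 9, 12, 14 and 15. In Control APP/PS1 libraries 5, 7, 11, 13, 16 and 17 it was at 521, 130, 323, 121, 687 and 643 CPM. Libraries 7 and 13 were low among APP/PS1 and lay inside the WT range, which libraries 14 and 15 extended upward. The log2 fold change was 1.89 ± 0.65 (SE), with an adjusted p of 0.0685 by edgeR. The call turned on the tool and the samples. Il1b passed with DESeq2 (adjusted p = 0.0292), with limma voom (0.0236), with only the compared groups in the edgeR fit (0.0300) and without library 14 (0.0291).

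Tnf, which signals through the TNF receptors, lay at 258, 347, 255, 139, 406 and 519 CPM in the same WT libraries and at 804, 289, 451, 476, 945 and 726 CPM in the APP/PS1 ones. Libraries 5, 16 and 17 exceeded every WT library and the other 3 did not. Between the groups the log2 fold change was 0.94 ± 0.33 (edgeR, adjusted p = 0.0698). It passed with limma voom (adjusted p = 0.02497), with only the compared groups (0.0354), without library 7 (0.0379) and without library 15 (0.0385).

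Il1a, the other IL-1 receptor ligand, was at 496 ± 315 CPM in Control WT and 618 ± 321 CPM in Control APP/PS1 (n = 6 each). The 95% confidence interval of its log2 fold change (0.32) ran from -0.69 to 1.32. The range in WT, 85.8 to 956 CPM, covered most of that in APP/PS1, 248 to 1049 CPM. Il6 stood at 7.50 ± 3.41 and 12.4 ± 5.28 CPM (log2 fold change 0.72, edgeR adjusted p = 0.228). Il1rn, which blocks the IL-1 receptor, stood at 5.01 ± 4.74 and 8.23 ± 3.32 CPM (log2 fold change 0.71, adjusted p = 0.580). Il18 was the only one of the 10 with a negative value, -0.27 (interval -0.66 to 0.11), at 26.2 ± 3.47 and 21.6 ± 3.44 CPM.

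Among the inflammasome genes, the log2 fold change of the sensor Nlrp3 was 0.16 (95% confidence interval -0.69 to 1.01), that of the adaptor Pycard 0.16 (-0.20 to 0.52) and that of the pore gene Gsdmd 0.021 (-0.18 to 0.22). Casp1, the protease, was at 31.6 ± 3.19 CPM in Control WT and 38.7 ± 5.72 CPM in APP/PS1 (log2 fold change 0.29 ± 0.13, edgeR adjusted p = 0.154). The groups overlapped for 10 of the 10 genes, and over all genes tested 8.36% did not overlap.

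**Figure D2:**
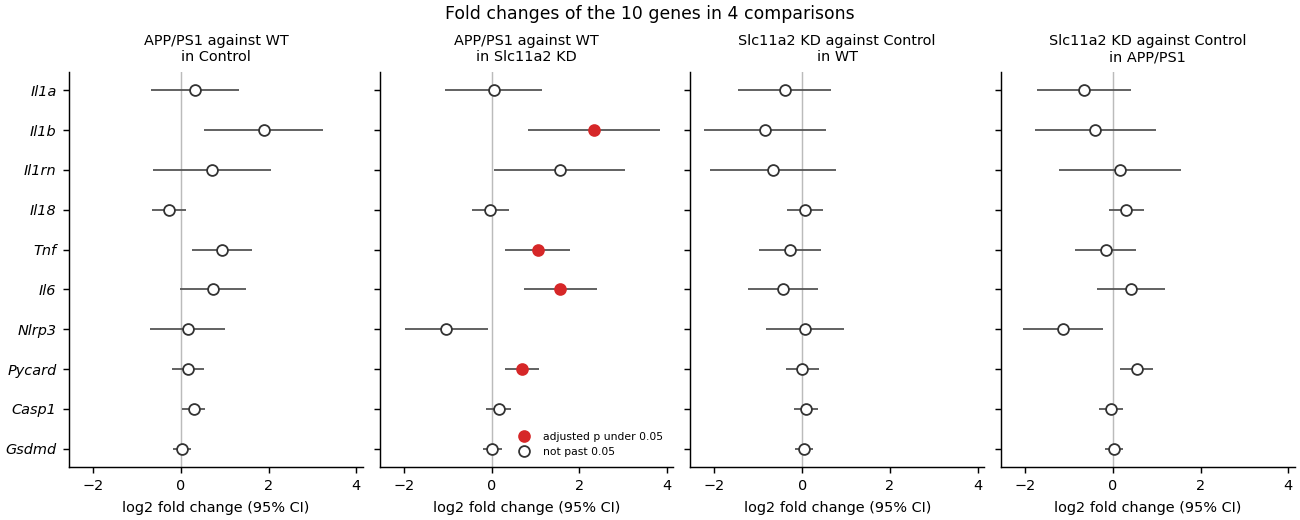
Log2 fold change of each gene in 4 comparisons with 95% confidence intervals from the edgeR fit; filled red points passed an adjusted p of 0.05 over all genes and open points did not. The 4 red points, Il1b, Tnf, Il6 and Pycard, are all in APP/PS1 against WT within Slc11a2 KD.

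The second comparison set APP/PS1 against WT within Slc11a2 KD. Il1b, Tnf, Il6 and Pycard rose, 4 of the 10 genes, where 9.77% of all genes tested rose, 6.41% fell and 16.2% changed in either direction. At an unadjusted p under 0.05 there were 6 of the 10, beside 31.7% of all genes. The median log2 fold change of the 10 was 0.43 against -0.067 over all genes. These calls were not stable. With the KD libraries 18 to 23 alone (without libraries 1 to 4) or with a term for libraries 18 to 23, 0 of the 10 passed. Among libraries 18 to 23 (2 KD WT, 4 KD APP/PS1) the log2 fold changes were 2.60 for Il1b, 0.95 for Tnf, 1.32 for Il6 and 0.45 for Pycard (adjusted p from 0.205 to 0.345), and -0.068 for Nlrp3. Without library 21 alone 0 passed, and with library 10 kept there were 2. The shares over all genes in these other fits are not given here. The counts thus do not show whether calls were lost for the 10 genes alone or for all genes.

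Il6, a cytokine of the acute phase, was at 4.95, 3.66, 5.17, 6.85 and 7.23 CPM in KD WT libraries 1, 2, 3, 19 and 22 and at 10.5, 7.58, 12.4, 31.1 and 21.3 CPM in KD APP/PS1 libraries 4, 18, 20, 21 and 23. Every APP/PS1 library exceeded every WT library, the only one of the 10 without overlap. Over all genes, 7.06% did not overlap, and 4.18% did so in this direction. The log2 fold change was 1.57 ± 0.41 (edgeR, adjusted p = 0.0101). The exact permutation p was 0.00794, the smallest that groups of 5 and 5 allow, and 0.112 after adjustment over all genes, so that no gene could pass by that test. With the short-long difference as a term in the edgeR fit the log2 fold change was 0.95 (adjusted p = 0.200).

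Il1b was at 103, 67.2, 24.4, 14.9 and 94.2 CPM in KD WT and at 175, 53.7, 106, 684 and 514 CPM in KD APP/PS1, in the same order of libraries. Libraries 21 and 23 stood far above the other 8, and library 18 lay inside the WT range. APP/PS1 exceeded WT by a log2 fold change of 2.34 ± 0.73 (edgeR, adjusted p = 0.0306). With the short-long difference as a term it was 1.23 (adjusted p = 0.422). Tnf was at 363, 236, 173, 129 and 424 CPM in KD WT and at 551, 286, 435, 774 and 695 CPM in KD APP/PS1, with library 18 again low, and its log2 fold change was 1.05 ± 0.36 (edgeR, adjusted p = 0.0483). It was 0.71 with the short-long term (adjusted p = 0.302).

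Pycard, the ASC adaptor, was at 187, 183, 121, 200 and 303 CPM in KD WT and at 204, 262, 337, 453 and 350 CPM in KD APP/PS1. In each group the libraries numbered 18 to 23 were above those numbered 1 to 4. KD WT ran from 200 to 303 CPM in the later libraries and from 121 to 187 CPM in the earlier ones, and KD APP/PS1 from 262 to 453 CPM against 204 CPM in library 4. Between genotypes the log2 fold change was 0.69 ± 0.19 (edgeR, adjusted p = 0.0150), and 0.18 (adjusted p = 0.293) with the short-long difference as a term. Numbers 1 to 4 held 1 KD APP/PS1 library and 3 KD WT libraries, so genotype and library number are not balanced here.

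Of the remaining genes, Il1rn stood at 3.16 ± 2.52 CPM in KD WT, with 0 counts in library 2, and at 9.26 ± 3.50 CPM in KD APP/PS1 (log2 fold change 1.55, edgeR adjusted p = 0.144). A count of 0 in library 2 allows up to 0.072 CPM (3 counts), for counting error only. Nlrp3 stood at 140 ± 93.1 and 68.3 ± 30.3 CPM (log2 fold change -1.03, adjusted p = 0.122). The log2 fold changes of Il1a (0.048, 95% confidence interval -1.05 to 1.15), Il18 (-0.027, -0.44 to 0.39), Casp1 (0.16, -0.13 to 0.45) and Gsdmd (0.015, -0.20 to 0.23) were near 0. Limma voom with sample weights put Il1rn (3.61, adjusted p = 0.0367), Nlrp3 (-1.43, adjusted p = 0.03865) and Pycard (0.76, adjusted p = 0.00143) past the threshold and left Il1b, Tnf and Il6 short of it.

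**Figure D3:**
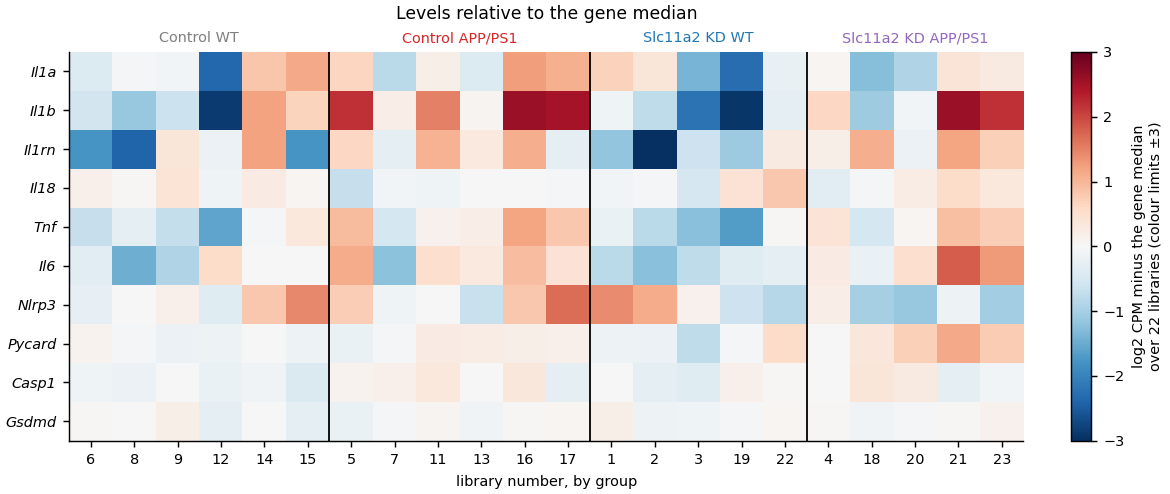
Log2 CPM of each gene minus its median over 22 libraries (colour, limits ±3), with libraries in columns by group and number. Libraries 12 and 19 are blue in Il1a, Il1b and Tnf, and within the KD groups libraries 18 to 23 are redder in Pycard and bluer in Nlrp3 than libraries 1 to 4.

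The third comparison asked what Slc11a2 KD changed in WT mice. By edgeR 0 of the 10 genes passed, as did 0 of all 18759 genes (0% called). At an unadjusted p under 0.05 there were 0 of the 10 and 5.92% of all genes, and DESeq2 called 0 of the 10 and 0.0535% of the genes to which it gave an adjusted p. For Il1b the log2 fold change was -0.85 (95% confidence interval -2.24 to 0.55), at 109 ± 91.7 CPM in Control WT and 60.7 ± 39.9 CPM in KD WT. For Tnf it was -0.28 (-0.98 to 0.43), for Il6 -0.43 (-1.23 to 0.37), for Il1a -0.39 (-1.45 to 0.67) and for Il1rn -0.67 (-2.09 to 0.76). Pycard (0.0065, -0.37 to 0.38), Il18 (0.064, -0.34 to 0.46), Casp1 (0.086, -0.19 to 0.36) and Gsdmd (0.035, -0.17 to 0.24) were closer to 0. For Nlrp3 the value of 0.062 (-0.83 to 0.95) averaged KD WT libraries 1 to 3 (mean 194 CPM) and libraries 19 and 22 (mean 58.7 CPM), which lay on either side of the Control WT mean of 134 CPM, and without KD libraries 1 to 4 it was -1.18 (edgeR, adjusted p = 0.24). The intervals of Casp1 and Gsdmd were the narrowest and those of Il1b and Il1rn the widest.

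The fourth comparison asked the same in APP/PS1 mice. By edgeR 0 of the 10 genes and 0 of all genes (0%) passed, and at an unadjusted p under 0.05 there were 2 of the 10, Nlrp3 and Pycard, beside 20.6% of all genes. DESeq2 gave an adjusted p to 7 of the 10 and to 4575 genes in all, and called 1 of the 7, Pycard (adjusted p = 0.0495), where it called 12.7% of those genes. Nlrp3 was at 163, 90.0, 98.6, 62.0, 171 and 311 CPM in Control APP/PS1 and at 112, 49.1, 44.3, 88.5 and 47.7 CPM in KD APP/PS1. The highest KD library was number 4, and libraries 18, 20 and 23 lay below every Control library. The log2 fold change was -1.13 ± 0.44 (edgeR, adjusted p = 0.205). Pycard was at 180, 199, 243, 240, 232 and 230 CPM in Control APP/PS1 and between 204 and 453 CPM in KD APP/PS1, where library 4 was the only one inside the Control range (0.54 ± 0.18, adjusted p = 0.205).

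By edgeR the calls of both genes turned on library 4. Without it, Nlrp3 fell by 1.38 on the log2 scale (edgeR, adjusted p = 0.0486) and Pycard rose by 0.67 (adjusted p = 0.0207). Over all genes, 1373 then passed as higher and 1696 as lower. With a term for libraries 18 to 23 the log2 fold change was -0.030 for Nlrp3 and -0.036 for Pycard (adjusted p = 1 for both). No Control library has such a number and library 4 is the only KD APP/PS1 library outside that run, so these estimates lean on library 4. With the short-long difference as a term the log2 fold change of Pycard was 0.037 and that of Nlrp3 -0.86 (adjusted p = 1 for both). In WT mice, Nlrp3 in KD libraries 19 and 22 was at 63.6 and 53.8 CPM, below all 6 Control WT libraries (76.6 to 267 CPM), while KD libraries 1, 2 and 3 were at 263, 211 and 107 CPM. Pycard in KD WT library 19 (200 CPM) lay inside the Control WT range of 182 to 223 CPM, and library 22 (303 CPM) above it. Among KD libraries alone, numbers 18 to 23 were lower in Nlrp3 and higher in Pycard than numbers 1 to 4 of the same genotype. In KD APP/PS1 libraries 18 to 23 the choroid plexus markers summed to 88.1 to 486 CPM, against 1.26 to 5.56 CPM in Control APP/PS1, and early response genes ran from 9128 to 16471 CPM against 10130 to 18442 CPM. The part of these in the values of Nlrp3 and Pycard was not tested.

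None of the 6 cytokine genes passed in this comparison. For Il1b the log2 fold change was -0.40 (95% confidence interval -1.78 to 0.98), for Tnf -0.17 (-0.87 to 0.54), for Il6 0.42 (-0.36 to 1.20), for Il1a -0.66 (-1.73 to 0.40), for Il1rn 0.17 (-1.23 to 1.56) and for Il18 0.31 (-0.087 to 0.71). Casp1 (-0.048, -0.33 to 0.23) and Gsdmd (0.030, -0.18 to 0.24) had the narrowest intervals. The interaction of knockdown and genotype, the difference between both knockdown effects, passed for 0 of the 10 genes and 0 of all genes (0%). At an unadjusted p under 0.05 it held 1 of the 10, Pycard (0.54 ± 0.26, edgeR adjusted p = 0.544), beside 9.08% of all genes, and DESeq2 called 0 of the 10 and 0.134% of the genes to which it gave an adjusted p. The effect of APP/PS1 was therefore not shown to differ between Control and KD for any of the 10, the 4 that passed in KD included.

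**Figure D4:**
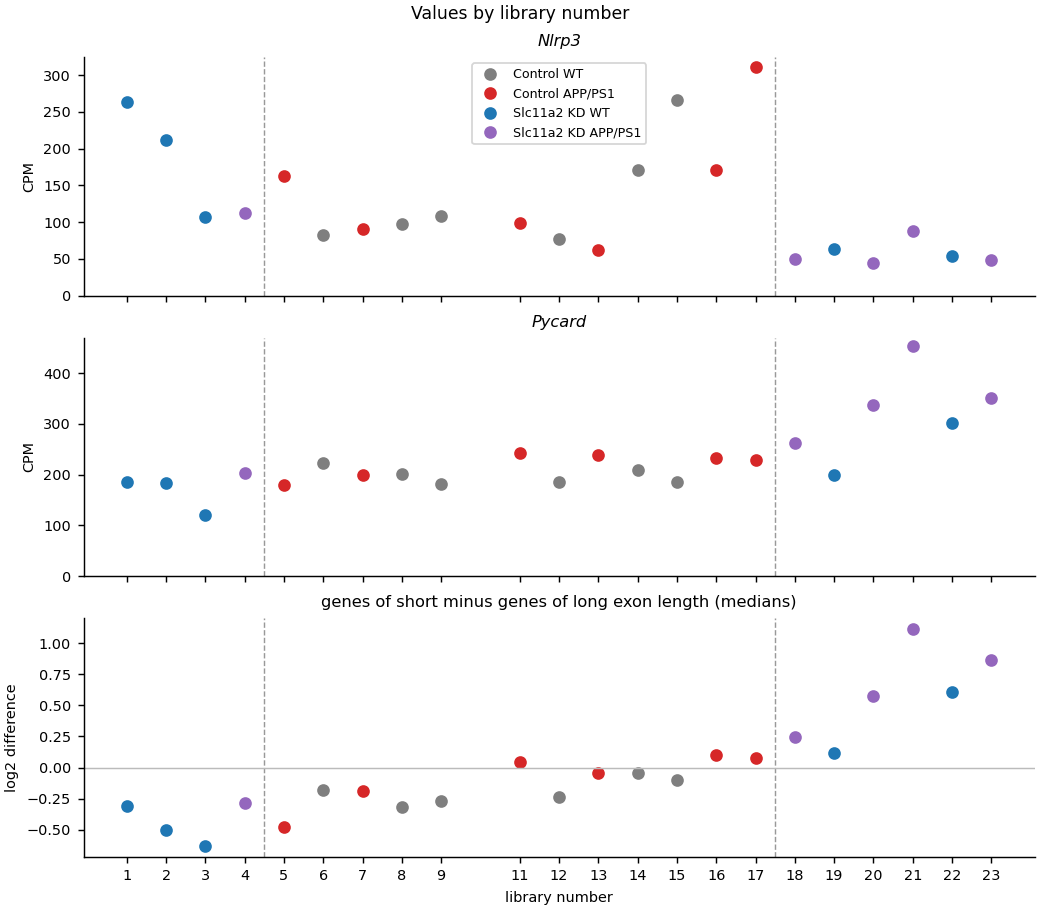
CPM of Nlrp3 (top) and Pycard (middle) and the short-long difference on the log2 scale (bottom) against library number, coloured by group; dashed lines separate numbers 1 to 4, 5 to 17 and 18 to 23. In KD libraries 18 to 23, Nlrp3 lies between 44.3 and 88.5 CPM, Pycard between 200 and 453 CPM and the difference between 0.12 and 1.11.

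To see which genes varied together apart from group, the group means were subtracted from log2 CPM and the deviations correlated over 22 libraries, with permutations within groups (100000) and p-values adjusted over 65 relations. Of the 45 pairs of the 10 genes, 6 passed an adjusted p of 0.05. Il1a, Il1b and Tnf deviated together. Il1a and Il1b had a Pearson r of 0.92 (Spearman 0.89, permutation p = 1e-05 for both, the smallest these permutations can give, adjusted p = 0.00013 for r and 0.000325 for Spearman). Without the 2 libraries farthest from the median of Il1b, r was 0.90. Il1a and Tnf had r = 0.91 (Spearman 0.88, without 2 libraries 0.88), and Il1b and Tnf had r = 0.91 (Spearman 0.87, without 2 libraries 0.88), with the same adjusted permutation p of 0.00013. Il6 was in none of the 6 pairs.

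Nlrp3 deviated with Il1a (r = 0.74, Spearman 0.77, permutation p = 0.00074 and 0.00043, adjusted p = 0.00437 and 0.00311, r = 0.70 without libraries 1 and 17). With Il1b it was weaker (r = 0.60, Spearman 0.55, permutation p = 0.00544 and 0.0109, adjusted p = 0.0295 and 0.0545, r = 0.56 without the same libraries). Pycard deviated with Il18 (r = 0.87, Spearman 0.72, permutation p = 5e-05 and 0.00095, adjusted p = 0.000464 and 0.00617, r = 0.81 without libraries 3 and 4). Within libraries 5 to 17 (n = 12, Control) and 18 to 23 (n = 6, KD), r was 0.95 and 0.97 for Il1a and Il1b, 0.94 and 0.99 for Il1a and Tnf, and 0.87 and 0.96 for Il1b and Tnf. It was 0.80 and 0.27 for Il1a and Nlrp3, 0.82 and 0.41 for Il1b and Nlrp3, and 0.57 and 0.99 for Il18 and Pycard. Pairs that had not passed were also strong within 18 to 23, such as Tnf and Pycard (0.94), Il1b and Il18 (0.94) and Il6 and Casp1 (-0.97). Others were weak there, such as Il1rn and Il6 (0.19). The values within 18 to 23 thus do not set apart the pairs that passed. Libraries 1 to 4 are too few for a value of their own.

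Both sets went with values that are measured over other genes. The summed level of 19 early response genes, among them Fos, Jun and Egr1, lay between 7110 and 18923 CPM and was lowest in libraries 19 (7110 CPM) and 12 (7568 CPM), the same libraries that were lowest in Il1a, Il1b and Tnf. Its log2 deviation correlated with Il1a (r = 0.90, Spearman 0.87), Nlrp3 (r = 0.81, Spearman 0.86), Il1b (r = 0.80, Spearman 0.75) and Tnf (r = 0.75, Spearman 0.71), with permutation p-values from 1e-05 to 0.00039 for r (adjusted 0.00013 to 0.00253) and from 2e-05 to 0.00146 for Spearman (adjusted 0.000325 to 0.00863). Leaving out libraries 12 and 19 gave r = 0.83, 0.82, 0.71 and 0.64. Within libraries 5 to 17 r was 0.89, 0.78, 0.84 and 0.83, and within 18 to 23 it was 0.90, 0.65, 0.95 and 0.87. Of the 19 genes, 1 rose in APP/PS1 in Control (Ccl3) and 3 rose in KD (Ccl3, Ier2 and Ier3), where 5.99% and 9.77% of all genes rose. It also holds Nr4a1, Atf3 and the chemokine genes Ccl3 and Ccl4, which reappear among the genes most like Il1a, Il1b and Tnf. For Il6 (r = 0.068) and Pycard (r = -0.031) the relation did not pass (adjusted permutation p = 0.854 and 0.928). Within libraries 18 to 23, however, r was 0.86 for Il6 and 0.89 for Pycard, beside 0.043 and -0.060 within 5 to 17.

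The short-long difference correlated with Pycard (r = 0.92, Spearman 0.83, permutation p = 2e-05 and 0.00011, adjusted p = 0.000217 and 0.00119) and Il18 (r = 0.89, Spearman 0.85, permutation p = 1e-05 and 0.00013, adjusted p = 0.00013 and 0.00121). Without libraries 4 and 22 r was 0.86 and 0.84. Within libraries 5 to 17 it was 0.76 and 0.68, and within 18 to 23 it was 0.96 and 0.99. For Il1b, Tnf and Il1a r was 0.33, 0.20 and 0.32 within 5 to 17, but 0.98, 0.94 and 0.93 within 18 to 23. In libraries 18 to 23 these values thus did not tell the sets of genes apart. For Il6 the Spearman value of 0.60 passed (permutation p = 0.00588, adjusted p = 0.0318) and the Pearson r of 0.48 did not (permutation p = 0.0186, adjusted p = 0.0865). For Nlrp3 r was -0.30 (adjusted permutation p = 0.421). By exon length Il18 is in the short class (up to 3893 bp) and Pycard is not. Tnf, Casp1, Gsdmd, Il1a and Il1b are in the short class, but their relations did not pass. Their r was 0.32, 0.028, 0.29, 0.11 and 0.36 (adjusted permutation p = 0.377, 0.935, 0.338, 0.741 and 0.338). With the short-long difference as a term, the log2 fold change of Il18 for APP/PS1 was -0.38 in Control (edgeR, adjusted p = 0.00858) and -0.49 in KD (adjusted p = 0.0117), and Il1b (1.83, adjusted p = 0.0349) and Tnf (0.89, adjusted p = 0.0439) passed in Control. This term was added after the data were seen.

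**Figure D5:**
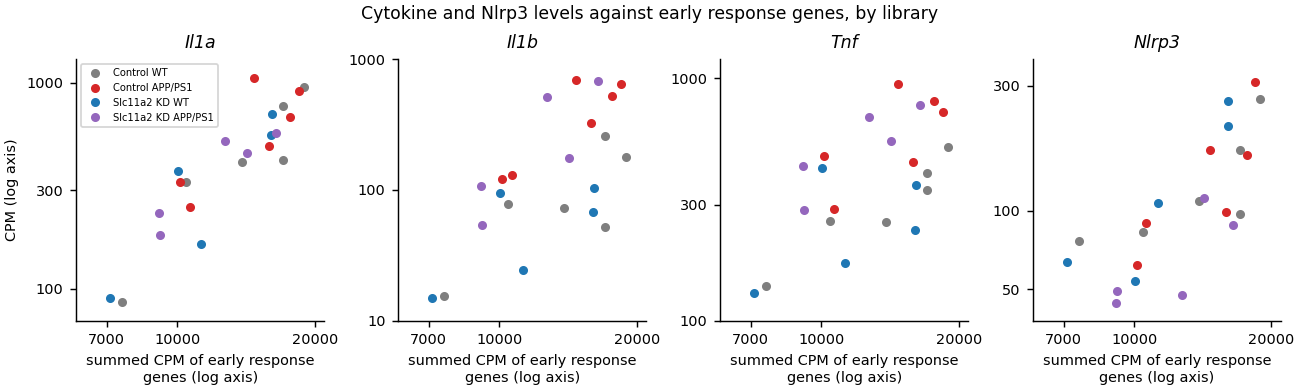
CPM of Il1a, Il1b, Tnf and Nlrp3 against the summed CPM of 19 early response genes, both on log axes, 1 point per library, coloured by group. Libraries 12 and 19, at 7568 and 7110 CPM on the horizontal axis, are the lowest for Il1a, Il1b and Tnf.

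Among 11878 genes with a mean of at least 1 CPM, those whose deviations were most like each gene's were named by rule, as a description over 22 libraries. For Il1a they were Nr4a1 (r = 0.97), Maff (0.96) and Atf3 (0.95), all of them transcription factor genes of the early response. For Il1b they were the chemokine gene Ccl4 (0.96), Tnfsf9 (0.95) and Ccrl2 (0.93), and for Tnf the phosphatase gene Dusp2 (0.92), Ccl4 (0.91) and Ccl3 (0.89). Nlrp3 was most like Rel (0.95), which encodes an NF-kB subunit, Zbtb2 (0.95) and Tob2 (0.94). Pycard was most like Uqcrc2 (0.97), a subunit gene of the respiratory chain, Ndfip1 (0.97) and Txndc9 (0.96), and Il18 like Prmt1 (0.95) and the ribosomal protein genes Rpl10a (0.94) and Rpl19 (0.94). Il6 had its highest value with the myelin gene Mag (0.79). For Il1rn (Cercam, 0.80), Casp1 (Ugp2, 0.85) and Gsdmd (Grwd1, 0.84) the best values lay below those of Il1a, Il1b and Tnf.

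The wider pathway was taken from 5 lists with 86 genes tested, of which 9.30% rose and 6.98% fell in APP/PS1 in Control, where 5.99% and 4.48% of all genes did. In KD 10.5% rose and 12.8% fell, where 9.77% and 6.41% of all genes did. In the list of 15 IL-1 family ligands, receptors and inhibitors, 11 were tested, and in Control APP/PS1 1 rose and 1 fell. Il1r1, the signalling receptor for IL-1α and IL-1β, stood at 3.35 ± 1.15 CPM in Control WT (1.84 to 5.17 CPM) and 10.98 ± 1.53 CPM in Control APP/PS1 (9.03 to 12.7 CPM), with no overlap, as for 5.33% of all genes in this direction. It rose by 1.71 ± 0.26 on the log2 scale (edgeR, adjusted p = 5.07e-05). In KD it rose by 1.49 ± 0.28 (adjusted p = 0.000789), from 3.10 ± 1.44 to 8.70 ± 0.980 CPM. Sigirr, a dampening member of the receptor family, fell by 1.81 in Control (adjusted p = 0.00304), and Il33, an alarmin, fell by 2.25 in KD (adjusted p = 0.0345).

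Of 22 other inflammasome and pyroptosis genes, 21 were tested, and 2 rose and 3 fell in APP/PS1 in Control and likewise in KD (of all genes, 5.99% and 4.48% in Control and 9.77% and 6.41% in KD). P2rx4, an ATP-gated channel, rose by 0.86 ± 0.17 in Control (edgeR, adjusted p = 0.00161) and by 1.22 ± 0.19 in KD (adjusted p = 0.000132). The initiator caspase gene Casp8 fell by 0.61 ± 0.09 in Control (adjusted p = 2.56e-05) and by 0.59 ± 0.09 in KD (adjusted p = 0.000146), without overlap in either, as for 3.03% and 2.88% of all genes in this direction. Txnip, which encodes a thioredoxin-binding protein, also fell in both, by 0.88 in Control and by 0.94 in KD. Naip2, a sensor of bacterial proteins, rose in Control (0.45, adjusted p = 0.0251), and the channel gene Panx1 rose in KD (0.82, adjusted p = 0.0031).

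Of 24 NF-kB subunits, IL-1/TLR adaptors and feedback inhibitors, 1 rose and 1 fell in Control, where 5.99% of all genes rose and 4.48% fell. The kinase gene Ikbkb rose by 0.57 (edgeR, adjusted p = 0.00993) and the adaptor gene Myd88 fell by 0.39 (adjusted p = 0.0238). In KD, Ikbkb rose by 0.47 (adjusted p = 0.0450), and 4 genes fell, Tab2 by 1.00 (adjusted p = 0.00599), Nfkb1 by 0.66 (adjusted p = 0.0155), Traf6 by 0.64 (adjusted p = 0.0499) and Chuk by 0.46 (adjusted p = 0.0231). Chuk lies outside the rule for named genes and was added after its value was seen. Of 13 genes for TNF and IL-6 receptors and their shedding, 0 passed in Control by edgeR (4 at an unadjusted p under 0.05), and 1 rose and 2 fell in KD, where 9.77% of all genes rose and 6.41% fell. These were the adaptor gene Tradd (0.64, adjusted p = 0.0104), the TNF receptor gene Tnfrsf1b, which fell by 0.66 (adjusted p = 0.00772), and the IL-6 receptor gene Il6ra, which fell by 1.07 (adjusted p = 0.00646).

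Of 22 other cytokine genes, 17 were tested, and 4 rose and 1 fell in each genotype comparison. Of all genes, 5.99% rose and 4.48% fell in Control, and 9.77% rose and 6.41% fell in KD. Csf1, a growth factor of microglia, rose by 2.53 ± 0.37 in Control (edgeR, adjusted p = 3.54e-05), from 35.9 ± 27.6 to 208 ± 48.0 CPM, and by 2.75 ± 0.41 in KD (adjusted p = 5.57e-05). Osm, an IL-6 family cytokine, rose by 1.37 ± 0.18 (adjusted p = 1.07e-05) and by 1.40 ± 0.20 (adjusted p = 3.22e-05). Il23a (adjusted p = 0.0114 in Control) rose from 0.133 ± 0.130 CPM in Control WT, where some libraries had no counts, to 1.92 ± 0.613 CPM. The leukocyte attractant Il16 fell by 0.83 and 0.84. For Slc11a2 KD against Control, by edgeR, 0 of the 86 genes of the 5 lists passed in WT or in APP/PS1. At an unadjusted p under 0.05 there were 4 of the 86 in WT (4.65%, beside 5.92% of all genes) and 21 in APP/PS1 (24.4%, beside 20.6%). In APP/PS1, TNF and IL-6 receptors and shedding held 8 of 13 and had a median log2 fold change of -0.42, and the NF-kB list held 6 of 24 and had a median of -0.35, against 0.012 over all genes. The other 3 lists held 7 of the 21, with medians from -0.13 to 0.017. Without library 4, 1 of the 13 rose and 6 fell, and 6 of the 24 fell, where 7.34% of all genes rose and 9.07% fell. With the short-long term 0 of either list passed by edgeR, and the medians were -0.048 and -0.12.

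Other CD11b+ cells are also known to carry these transcripts. Border-associated macrophage markers summed to between 232 and 460 CPM in Control WT and between 97.8 and 209 CPM in Control APP/PS1, and 6 of 8 fell (3 of 8 in KD). Monocyte markers summed to 79.6 to 131 CPM and 13.7 to 64.0 CPM, and 3 of 8 fell (1 of 8 in KD). Neutrophil markers summed to 240 to 498 CPM and 285 to 329 CPM, 1 of 10 rose and 4 fell (2 of 10 fell in KD). The one that rose was Csf3r, a receptor gene that made up much of the sum, at 142 to 168 CPM in Control WT and 214 to 282 CPM in Control APP/PS1. Without it the other 9 markers summed to 89.9 to 335 CPM and 21.3 to 102 CPM. The defining neutrophil marker Ly6g lay between 0 and 2.05 CPM over the 22 libraries. Markers of cells that are not myeloid also differed. Of the 10 choroid plexus markers, 9 were called lower in APP/PS1 in Control, and 0 without libraries 12 and 15, which carried them. In KD 0 of the 10 were called. Endothelial markers summed to 161 to 337 CPM in Control WT and 107 to 142 CPM in Control APP/PS1, where 4 of 5 fell and Flt1 rose (2 of 5 fell in KD). Without libraries 12 and 15, 2 of the 5 endothelial markers fell. Oligodendrocyte markers summed to 627 to 2521 CPM and 286 to 822 CPM, and 3 of 5 fell (1 of 5 in KD). Astrocyte markers summed to 6.74 to 13.7 CPM and 35.3 to 98.1 CPM, and Gfap alone of the 5 rose, in Control as in KD. Neuron markers stayed at or below 8.23 CPM in every library, and 2 of 5 fell in Control. Lymphocyte markers summed to 160 CPM in library 23, where Igkc alone was at 144 CPM, and to at most 55.4 CPM in the others. Library 23 was high in Il1b and Il6, and library 21 was higher in both with a lymphocyte sum of 5.54 CPM. The part of all these cells in the levels of the 10 genes was not tested. Reads of Il1a, Il1b, Pycard, Casp1 and Gsdmd can be shared with annotated transcripts on the opposite strand that overlap their exons (Gm14023, Il1bos, Gm45205, Gm67740 and Gm62577), and whether counting used the strand is not given in the sources used here.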

How the data were processed

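The authors trimmed reads with Trim Galore 0.6.7 and aligned them with STAR to mm39 (submitters' processing notes), and deposited unnormalized counts of reads per gene. A second deposited table holds a signal, counts divided by 1 size factor per sample, and was used only for an alternative scaling. A minimum of 5 counts in 3 or more of the 22 samples left 18759 of 18876 genes, which were fitted with edgeR 4.0.16 (TMM, quasi-likelihood, 4 groups in 1 fit, R 4.3.3). Two-sided p-values had a Benjamini-Hochberg adjustment across every gene fitted, and the threshold was 0.05. Levels are TMM-scaled CPM, and log2 CPM used a prior count of 2. Library 10 was identified as the study's removed outlier because it is absent from the study's heat map. Total counts of 31128643 to 54872491 were the depth behind each value, and counting error and the spread between samples were not separated. Exon lengths, starts and upstream sequence came from GENCODE M39 and GRCm39, matched by Ensembl identifier. The genes and lists were chosen with earlier results of these data known. In each list, up to 3 genes per direction were named by the size of change among those past the threshold, and for each of the 10 genes the 3 with the highest r. Alternatives were DESeq2 1.42.0, its size factors, limma voom 3.58.1 with sample quality weights, other filters, library 10 kept, only the compared groups, each library left out, exact permutation on log2 CPM, libraries 1 to 4, 4, or 12 and 15 left out, and a term for libraries 18 to 23. After the data were seen, libraries 12 and 19 left out and a short-long term were added. The scripts were tested on simulated data. The values of 1 gene of the wider lists are not reported here.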

Additional observations from a re-analysis of the deposited data

Results flagged for a closer look

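In 40 groups of values (10 genes in 4 groups), 3 held a library at one end that lay far from the others by Dixon's test at the 95% level, on log2 CPM. Chance alone gives about 1 such library in 20 groups. Il18 in Control APP/PS1 was at 14.8 CPM in library 5, and between 21.7 and 23.99 CPM in the other 5 libraries (gap over range 0.793). Library 5 also had the lowest short-long difference of its group (-0.48). Il6 in Control APP/PS1 was at 3.72 CPM in library 7, and between 10.8 and 19.02 CPM in the others (gap over range 0.654). Il1rn in KD WT had 0 counts in library 2, and between 2.48 and 6.94 CPM in the others (gap over range 0.796).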

How the results depend on the processing

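No paired analysis was possible because the labels do not link mice of one group to mice of another. For APP/PS1 against WT in Control, 0 of the 10 genes passed in the main edgeR fit, 1 with DESeq2, 2 with limma voom, 2 with only the compared groups, 3 with a short-long term, and 0 to 1 when 1 library was left out. Within KD, the main count of 4 became 2 with library 10 kept, 1 with only the compared groups, 1 with a short-long term (Il18), and 0 without KD libraries 1 to 4 or with a term for libraries 18 to 23. It was also 0 by exact permutation, which cannot pass in groups of 5 and 5, since the smallest p of 0.00794 became 0.112 after adjustment. Leaving out 1 library gave 0 (without library 21) to 4, and 2 each without library 2, 3, 19 or 23. For KD against Control in APP/PS1 the count of 0 became 1 with DESeq2, 2 without library 4 and 2 without KD libraries 1 to 4, and 0 to 2 when 1 library was left out. Of the 30 most similar genes, 13 were also named by Spearman's rho. For most of these fits the share of all genes called is not given here, so a changed count is not a result about the 10 genes alone. The cause of these changes was not tested. Counts per library ran from 103 to 1213 for Il6 and from 0 to 646 for Il1rn.

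The log2 fold changes that changed sign were not called in the main fit, and the following values are under the alternatives. For APP/PS1 against WT in Control, Gsdmd was -0.012 with DESeq2, -0.012 with its size factors, -0.020 with at least 10 counts in every sample, -0.081 without libraries 12 and 15 and -0.020 without libraries 12 and 19. Within KD, limma voom gave Il1a -0.29, Il18 0.093 and Gsdmd -0.020, and without library 4 Il1a was -0.011 and Il18 0.073. Without KD libraries 1 to 4 Casp1 was -0.022 and Gsdmd -0.051. Il18 was 0.015 by permutation. Without libraries 12 and 19 Il1a was -0.19 and Il18 0.041, and with the short-long term Il1a was -0.17 and Gsdmd -0.050.

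For KD against Control in WT, limma voom gave Il18 -0.12 and Pycard -0.15, and Pycard was -0.0041 with at least 10 counts and -0.0042 with only the compared groups. Nlrp3 was -1.18 without KD libraries 1 to 4 and -0.065 by permutation, where Pycard was -0.051. Without libraries 12 and 15 Il18 was -0.017, Pycard -0.037 and Gsdmd -0.067. Without libraries 12 and 19 they were -0.062, -0.028 and -0.014. With a term for libraries 18 to 23 Il18 was -0.28, Pycard -0.30 and Casp1 -0.0035. With the short-long term Il18 was -0.040, Nlrp3 -0.0025 and Pycard -0.084.

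For KD against Control in APP/PS1, limma voom gave Casp1 0.068 and Gsdmd -0.0027. With library 10 kept Il1rn was -0.019 and Gsdmd -0.0074, and Gsdmd was -0.0091 without KD libraries 1 to 4. With a term for libraries 18 to 23 Il1rn was -0.62, Il18 -0.29, Il6 -0.16 and Pycard -0.036. With the short-long term Il1rn was -0.38, Il18 -0.16, Il6 -0.21 and Gsdmd -0.029. For the interaction, Gsdmd was 0.042 with DESeq2 or its size factors, 0.040 with at least 10 counts, 0.097 without libraries 12 and 15 and 0.033 without libraries 12 and 19. Limma voom gave Il1b -0.64, Tnf -0.087 and Casp1 0.036. Il1a was 0.34 and Il18 -0.13 without KD libraries 1 to 4, and 0.12 and -0.0025 with a term for libraries 18 to 23. With the short-long term Il1b was -0.60, Il18 -0.12 and Tnf -0.18.

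When 1 library was left out, Nlrp3 ran from -0.20 to 0.47 and Gsdmd from -0.021 to 0.071 for APP/PS1 in Control. Within KD, Il1a ran from -0.19 to 0.40, Il18 from -0.16 to 0.18 and Gsdmd from -0.019 to 0.064. For KD in WT, Il18 ran from -0.16 to 0.20, Nlrp3 from -0.30 to 0.38, Pycard from -0.21 to 0.14 and Gsdmd from -0.013 to 0.085. For KD in APP/PS1, Il1rn ran from -0.0048 to 0.32, Casp1 from -0.17 to 0.011 and Gsdmd from -0.0066 to 0.046. For the interaction, Il1a ran from -0.56 to 0.085, Il1b from -0.085 to 0.72, Tnf from -0.082 to 0.35 and Gsdmd from -0.055 to 0.043.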
